A study of Mus musculus with 16 samples.

Results

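The 5 genes of the hepatic drug and steroid response described here were measured in the livers of 16 female mice: the cytochrome P450 genes Cyp2b9, Cyp2b10 and Cyp2b13, and the nuclear receptor genes Nr1i3, which encodes the constitutive androstane receptor (CAR), and Nr1i2, which encodes the pregnane X receptor (PXR). They were chosen by name, and all 5 were found among the 15544 genes listed for liver. Controls carried floxed alleles of Esr1, the gene for oestrogen receptor alpha (ERα). Mutants carried the same floxed alleles together with Nkx2-1-Cre, which removes ERα where Nkx2-1 is expressed, including part of the hypothalamus, and females of this genotype have high bone mass. Mice of either genotype were kept on chow or were fed a high-fat diet (HFD) for 17 weeks, and liver was taken at 27 weeks of age. This gave 4 groups of 4 mice with 1 bulk RNA-seq library per mouse, on a mixed CD-1 and 129P2 background. Values are TPM, a length-adjusted share of the transcripts of a library, after adjustment between libraries by size factors, so levels of different genes can be set side by side.

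CYP2B enzymes oxidise drugs, pesticides and steroids in the hepatocyte. CAR and PXR are the ligand-regulated receptors that induce them: both pair with the retinoid X receptor, and Cyp2b10 is the classical CAR target of mouse liver. Cyp2b9 and Cyp2b13 are known in adult mice as female-biased genes that depend on the pituitary pattern of growth hormone secretion. The comparison of genotypes asks whether the loss of hypothalamic ERα leaves a mark on these liver genes, and the comparison of diets asks the same of the dietary challenge.

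The 3 Cyp2b genes lie in a row on the forward strand of mouse chromosome 7 (GRCm38, GENCODE M21): Cyp2b10 (ENSMUSG00000030483) at chr7:25897620-25926624, Cyp2b13 (ENSMUSG00000040583) at chr7:26061497-26096197 and Cyp2b9 (ENSMUSG00000040660) at chr7:26173411-26210661. Nr1i3 (ENSMUSG00000005677) lies at chr1:171213970-171220701 on the forward strand and Nr1i2 (ENSMUSG00000022809) at chr16:38248323-38294824 on the reverse strand. All 5 are annotated as protein coding. The 250 bases before the annotated start of each Cyp2b gene (RefSeq, GRCm38.p6, forward strand) are shown because Cyp2b9 and Cyp2b13 share almost the same promoter, whereas their levels were far apart in 7 of 8 mutant livers. Windows are chr7:26173159-26173408 for Cyp2b9, chr7:26061245-26061494 for Cyp2b13 and chr7:25897408-25897657 for Cyp2b10. The RefSeq starts used for them differ from the GENCODE starts given above. The Cyp2b10 window reaches past its GENCODE start, and those of Cyp2b9 and Cyp2b13 end shortly before theirs. Capitals mark every match to the 6 motifs searched on both strands, which do not overlap each other here.
Cyp2b9: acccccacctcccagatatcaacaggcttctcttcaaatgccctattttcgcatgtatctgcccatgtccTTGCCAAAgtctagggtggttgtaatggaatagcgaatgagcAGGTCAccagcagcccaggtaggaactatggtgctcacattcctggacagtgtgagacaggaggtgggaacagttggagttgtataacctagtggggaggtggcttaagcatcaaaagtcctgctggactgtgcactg
Cyp2b13: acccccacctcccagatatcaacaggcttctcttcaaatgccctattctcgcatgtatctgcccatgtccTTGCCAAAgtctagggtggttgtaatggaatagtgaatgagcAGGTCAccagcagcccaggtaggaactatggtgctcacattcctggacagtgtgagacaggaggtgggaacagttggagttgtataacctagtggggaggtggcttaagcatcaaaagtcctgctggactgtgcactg
Cyp2b10: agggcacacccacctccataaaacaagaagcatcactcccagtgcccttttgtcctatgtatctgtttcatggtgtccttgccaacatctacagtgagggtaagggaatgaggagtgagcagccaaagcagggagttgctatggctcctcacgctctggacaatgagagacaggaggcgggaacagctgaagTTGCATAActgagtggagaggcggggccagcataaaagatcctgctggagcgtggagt

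Cyp2b9 and Cyp2b13 were identical at 248 of these 250 positions (99.2%). Counted from 1 at the 5′ end of the window, the differences from Cyp2b9 to Cyp2b13 were T48C and C104T. Neither touched a motif match. Cyp2b10 aligned to Cyp2b9 with 72.0% identity. AGGTCA, a core motif of nuclear receptors, stood once in Cyp2b9 and once in Cyp2b13, at −138 from the start in both, and not in this window of Cyp2b10. It was held by 14.0% of 32851 promoter windows of the same length. TTGCNNAA, a C/EBP type motif held by 9.56% of windows, stood at −180 in Cyp2b9 and Cyp2b13 and at −58 in Cyp2b10. AGTTCA (11.8% of windows), TTCNNNGAA of the STAT5 type (7.02%), TATAAA (12.4%) and GTTAATNAT of the HNF1 type (0.737%) had no match in the 3 windows. A match is a string of letters in a window and not a bound site.

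The genes are also alike in their transcripts, which matters for how reads were assigned. Aligned end to end, the Cyp2b13 transcript was 89.5% identical to Cyp2b9 and 86.4% to Cyp2b10. Of the 31-base words of each gene's annotated transcripts, 59.2% for Cyp2b13, 73.9% for Cyp2b9 and 80.6% for Cyp2b10 occurred in no other annotated gene on either strand. For Nr1i2 this was 100%. For Nr1i3 it was 31.9%, because the transcripts of its neighbour Tomm40l, whose values lay between 8.26 and 25.1, overlap those of Nr1i3. The level of Nr1i3 was many times higher in every library, and a part of it that belongs to Tomm40l cannot be told apart without strand information, which is not given in the sources used here.

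Some libraries stood apart in ways that touch these genes. Mutant replicates 1 and 2 on chow had high acute-phase genes, the hepatocyte genes induced by inflammation: the mean log2(value + 1) of 15 such genes was 9.63 and 12.2, against 7.82 to 8.22 in the 4 controls on chow, and it reached 10.1 in control replicate 1 on HFD. Mutant replicate 1 on HFD carried the mutant level of Rps7 (206, against 143 to 210 in all mutants and 15.5 to 34.3 in all controls). Yet it stood with the controls for several genes below, and its liver Esr1 was 6.42 where the other mutants on HFD had 20.5 to 22.9 and controls on HFD 6.14 to 8.09. Esr1 in liver is no check of the deletion, which takes place where Nkx2-1 is expressed. The numbers in the library titles form 4 series, here A to D, each within 1 diet. On HFD, series A holds 3 controls and that 1 mutant, and series D holds 3 mutants and control replicate 4. On chow, series B holds 2 controls and mutant replicate 1, and series C holds 2 controls and 3 mutants. What the series are is not stated, so diet and series cannot be told apart, and on HFD genotype and series nearly coincide. Fits without mutant replicate 1 on HFD are given below, and there all HFD mutants are of series D. That liver stood out by some of the same genes, so passing in such a fit is a description and no independent support. The summed level of 6 hepatocyte markers was 55807 to 95898 in every library. Marker sums were 107 to 526 for Kupffer cells, 81.0 to 151 for endothelial cells, 108 to 218 for stellate cells, 951 to 4277 for red blood cells, 1.90 to 4.67 for bile duct, 4.12 to 13.6 for adipocytes (without Adipoq and Lep, which have no row), 1.37 to 7.33 for lymphocytes and 6.38 to 30.2 for the 1 listed pancreas marker, Cela1. The Kupffer sum was highest of all 16 in mutant replicates 1 and 2 on chow (452.5 and 525.5), against 107 to 372 in controls on chow, 184 and 272 in the other mutants on chow, 236 to 383 in controls on HFD and 196 to 304 in mutants on HFD. All 5 Kupffer markers were above 0 in every library. The highest endothelial sum (151) was in the first of these livers and the highest stellate sum (218) in the second. In bulk liver, fewer cells of a type and less RNA per cell cannot be told apart.

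Cyp2b13 was the member that differed most between genotypes. On chow, the 4 controls had 349, 502, 413 and 295, and the 4 mutants 14.3, 5.04, 223 and 179.6. Every mutant was below every control. The mean was 389.8 ± 89.0 (SD, n = 4) in controls and 105.5 ± 112 (SD, n = 4) in mutants, which is 3.69 times lower. On HFD, the controls had 419, 514.5, 516 and 522, and the mutants 514, 92.1, 119 and 120.4. Mutant replicates 2 to 4 were far below all controls, and mutant replicate 1 lay within the control range. The means on HFD were 493 ± 49.3 and 211.5 ± 202 (SD, n = 4 each), which is 2.33 times lower in mutants. Over both diets, 7 of 8 mutants had 5.04 to 223 and the 8 controls 295 to 522.

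In the fit across all 12704 tested genes, the log2 difference of Cyp2b13 between mutants and controls was −3.12 (SE 0.89, 95% interval −5.03 to −1.22) on chow and −1.60 (SE 0.89, −3.50 to 0.30) on HFD. Neither passed the threshold of 0.05 after Benjamini-Hochberg adjustment over all genes (limma, adjusted p = 0.599 and 0.596). On chow, 0.0236% of all genes passed. On HFD, 0.0157% did. For Cyp2b13 alone, the exact two-sided permutation test gave p = 0.0286 on chow, the smallest that 4 against 4 libraries allow, and p = 0.0571 on HFD. Groups without overlap are not rare: 3.05% of tested genes had none on chow and 2.69% on HFD. Averaged over both diets, the difference was −2.36 (SE 0.63, limma, unadjusted p = 0.00192, adjusted p = 0.268), where 0.063% of all genes passed. An exact two-sided permutation test that exchanged labels only within a diet, added after the values were seen, gave p = 0.000816 against a smallest possible 0.000408. The genotype by diet interaction was 1.53 (SE 1.26, limma, adjusted p = 0.895), and 0% of genes passed there.

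The size of the Cyp2b13 difference on chow rested on mutant replicates 1 and 2, the livers with the highest Kupffer marker sums and with high acute-phase genes. Without both, it was −0.93 (SE 0.49, limma, unadjusted p = 0.0821), and the mean over both diets was −1.26 (SE 0.32, adjusted p = 0.461). Without mutant replicate 1 on HFD, the difference on HFD was −2.15 (SE 0.92, adjusted p = 0.214) and that over both diets −2.64 (SE 0.63, adjusted p = 0.0641). Within title series C, where all 5 livers are from chow-fed mice, mutants had 5.04, 223 and 179.6 and controls 413 and 295. Within series B, 1 mutant had 14.3 and 2 controls had 349 and 502. Within series D the 3 mutants had 92.1 to 120.4 and the 1 control 522, and within series A the 1 mutant had 514 and the 3 controls 419 to 516. Mutants were below controls in 3 of 4 series. With the series as a term in the fit, the difference was −3.30 on chow (SE 0.95, limma, adjusted p = 0.447), −1.07 on HFD (SE 1.06, adjusted p = 0.9996) and −2.19 over both diets (SE 0.71, adjusted p = 0.475). Between diets, Cyp2b13 differed by 0.36 in controls (SE 0.89, adjusted p = 0.890) and by 1.89 in mutants (SE 0.89, adjusted p = 0.723) on the log2 scale. The latter was −0.31 without mutant replicates 1 and 2 on chow.

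**Figure D1:**
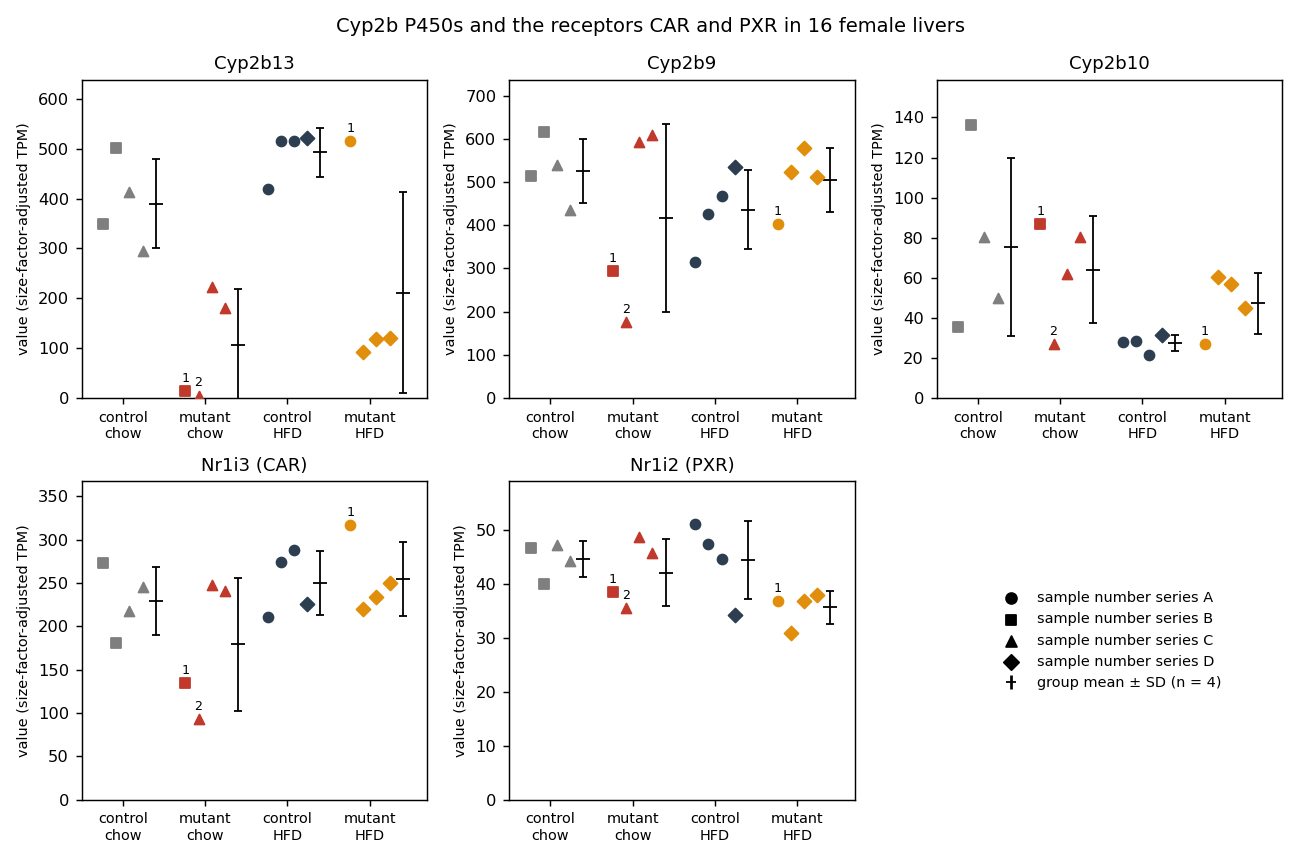
Value of each member (y axis, size-factor-adjusted TPM, from 0) in each of 16 livers by group (x axis), with marker shape for the title number series and the group mean ± SD beside the points. The SD bar of Cyp2b13 in mutants on chow reaches below 0 and is cut there; digits name mutant replicates 1 and 2 on chow and 1 on HFD, and 7 of 8 mutants had 5.04 to 223 of Cyp2b13 against 295 to 522 in the 8 controls.

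Cyp2b13 also made up a smaller share of the Cyp2b sum in 7 of 8 mutants than in any control. Values of the 3 genes summed to 780.5 to 1253 in controls on chow, 207 to 878 in mutants on chow, 763 to 1089.8 in controls on HFD and 676 to 944 in mutants on HFD. Cyp2b13 made up 37.8% to 40.0% of the sum in controls on chow and 47.9% to 55.0% in controls on HFD. In mutants it made up 3.62%, 2.43%, 25.4% and 20.7% on chow, and 54.5%, 13.6%, 15.8% and 17.8% on HFD. Mutant replicate 1 on HFD was again the exception. Cyp2b9 exceeded Cyp2b13 by 2.65 to 34.7 times in the other 7 mutants, whereas the ratio was 0.753 to 1.48 in the 8 controls and 0.784 in that mutant. The sum does not depend on how reads were divided among the 3 genes. It was lower in mutants on average, 587 ± 339.4 against 991 ± 203 on chow and 763 ± 126 against 957 ± 139 on HFD (SD, n = 4), with ranges that overlapped on both diets. These shares are a description and were not tested.

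**Figure D2:**
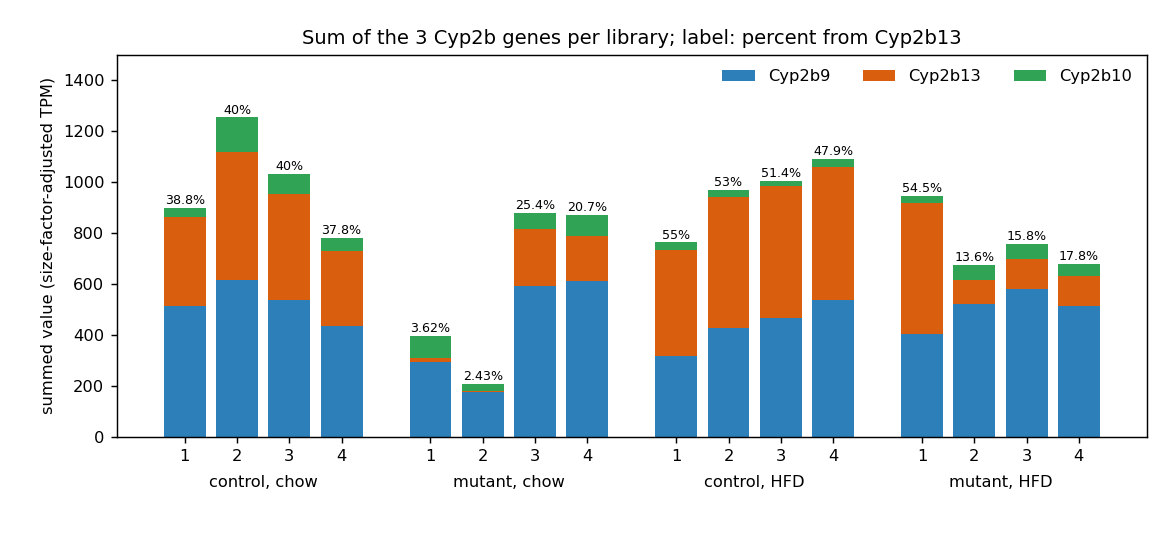
Stacked values of Cyp2b9, Cyp2b13 and Cyp2b10 (y axis, size-factor-adjusted TPM) in each library (x axis, replicate within group), with the percent from Cyp2b13 above each bar. Cyp2b13 makes up 37.8% to 55.0% of the sum in the 8 controls and in mutant replicate 1 on HFD, and 2.43% to 25.4% in the other 7 mutants.

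The gene whose pattern over the 16 libraries was most like that of Cyp2b13 was one of its downstream neighbours. Gm29920 (ENSMUSG00000108342), annotated as a processed pseudogene at chr7:26099563-26100316 on the reverse strand, begins 3365 bases past the annotated end of Cyp2b13. Its values were 16.1, 21.1, 19.8 and 12.9 in controls on chow and 0.273, 0.148, 15.5 and 10.4 in mutants on chow. On HFD they were 11.1, 15.2, 14.5 and 41.1 in controls and 17.2, 6.32, 6.84 and 6.99 in mutants. The same 2 chow mutants were near 0 and the same HFD mutant stood with the controls. Pearson's coefficient with Cyp2b13 on log2(value + 1) was 0.957 (Spearman 0.826, 16 libraries, as a description), and 0.817 without mutant replicates 1 and 2 on chow. Gm29920 shares no 31-base word with Cyp2b13, and 98.8% of its words occur in no other gene. Its level was 0.0191 to 0.0787 of that of Cyp2b13. Whether its reads come from transcripts that run on from Cyp2b13 was not tested.

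The other genes along the cluster had smaller differences between genotypes than Cyp2b13, or opposite ones. Cyp2b9, the next coding gene, had log2 differences between genotypes of −0.50 on chow and 0.22 on HFD. Beyond it, Cyp2a4, a female-biased steroid hydroxylase, was 1.15 higher in mutants on chow (SE 0.59) and 1.77 higher on HFD (SE 0.59, limma, adjusted p = 0.527). Its values on HFD were 104, 224, 589.6 and 157 in controls and 176, 1036, 1229 and 1329 in mutants. Cyp2f2, a P450 toward the far end of the cluster, was at −1.38 on HFD (SE 0.49, adjusted p = 0.542), with 117, 186, 112 and 269.8 in controls and 185, 44.4, 38.7 and 43.3 in mutants. Cyp2b19, known as a skin gene, was at 0.0715 to 2.04 and so near the limit of 1 used for testing, with a log2 difference of −0.54 on chow (SE 0.23, adjusted p = 0.804) and −0.41 on HFD (SE 0.23, adjusted p = 0.593). Its lowest values, 0.0715 and 0.144, were in mutant replicates 2 and 1 on chow. Of the 10 neighbours in the fixed list of Cyp2 cluster genes, 7 were tested and none passed the adjusted threshold in any comparison, with 1 at an unadjusted p under 0.05 for genotype on chow and 3 on HFD. Of all genes, 6.08% and 8.6% were at that level. The medians of the 7 log2 differences were −0.29 for genotype on chow and 0.16 for genotype on HFD, beside 0.02 and 0.02 over all genes. Without mutant replicate 1 on HFD, Cyp2a4 (2.46, adjusted p = 0.0170) and Cyp2f2 (−1.90, adjusted p = 0.0340) passed on HFD, 2 of 7 beside 1.11% of all genes. Both genes were at the control level in that liver, so this count was not independent of leaving it out. Cyp2b23 has no row in the table used and was not analysed here. The pseudogenes Cyp2b26-ps, Cyp2b27-ps and Gm45225 had median values of 0.203, 0.687 and 0.533.

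**Figure D3:**
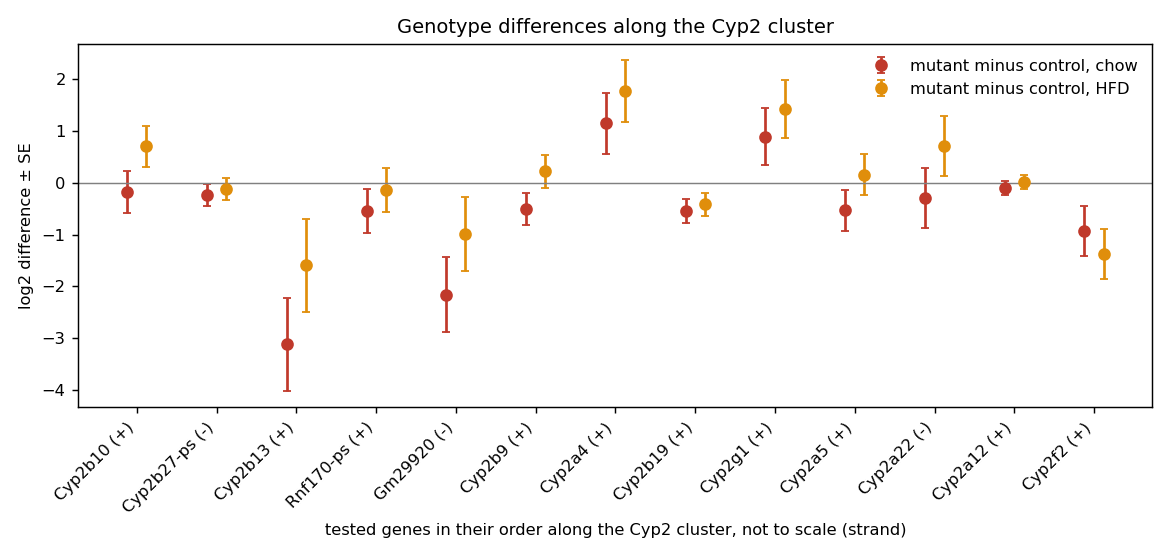
Log2 difference between mutants and controls ± SE (y axis) on chow and on HFD for the 13 tested genes of the Cyp2 cluster in their order along the chromosome (x axis, not to scale, strand in brackets). Cyp2b13 and its neighbour Gm29920 are lowest on chow, at −3.12 and −2.16, while Cyp2a4 is at 1.15 and 1.77.

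Cyp2b9 was the most abundant member in most livers. Its values on chow were 515, 615, 539 and 436 in controls and 293, 175, 592 and 609.7 in mutants. On HFD they were 315.6, 427, 467 and 536 in controls and 403, 523, 580.0 and 512 in mutants. Low values were those of mutant replicates 1 and 2 on chow, and next to them control replicate 1 on HFD, the 3 libraries with the highest acute-phase genes. The log2 difference between genotypes was −0.50 on chow (SE 0.31, 95% interval −1.17 to 0.17, limma, adjusted p = 0.885) and 0.22 on HFD (SE 0.31, −0.44 to 0.89, adjusted p = 0.819). Without mutant replicates 1 and 2, the difference on chow was 0.20. Between diets it was −0.28 in controls (SE 0.31, adjusted p = 0.712) and 0.44 in mutants (SE 0.31, adjusted p = 0.848).

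Cyp2b10, the inducible member, was less abundant, and its clearest difference was between diets in controls. Controls had 35.5, 136, 80.3 and 49.7 on chow and 28.0, 28.7, 21.7 and 31.6 on HFD. Every control on HFD was below every control on chow. The means were 75.4 ± 44.6 and 27.5 ± 4.16 (SD, n = 4 each), 2.74 times lower on HFD. Mutants had 86.8, 27.0, 62.0 and 80.2 on chow and 26.8, 60.6, 56.7 and 45 on HFD, and these ranges overlapped. The log2 difference between diets in controls was −1.25 (SE 0.40, 95% interval −2.10 to −0.41, limma, unadjusted p = 0.00648, adjusted p = 0.241). No tested gene passed the adjusted threshold there (0%), while 12.9% had an unadjusted p under 0.05 and 6.36% had diet groups without overlap. The exact two-sided permutation test for Cyp2b10 gave p = 0.0286, the smallest possible. In mutants the difference was −0.37 (SE 0.40, limma, adjusted p = 0.913), where 0% of genes passed and 3.53% had no overlap. Over both genotypes it was −0.81 (SE 0.28, limma, adjusted p = 0.227), with an exact permutation p = 0.0273 within genotypes and 0.134% of all genes past the adjusted threshold.

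Between genotypes, the log2 difference of Cyp2b10 was −0.18 on chow (SE 0.40, limma, adjusted p = 0.9995) and 0.71 on HFD (SE 0.40, 95% interval −0.14 to 1.56, adjusted p = 0.597). On HFD, mutant replicates 2 to 4 had 45 to 60.6 and the 4 controls and mutant replicate 1 had 21.7 to 31.6. The 3 high mutants are all of series D, whose 1 control had 31.6, and with the series as a term the difference on HFD was 0.40 (SE 0.45, limma, adjusted p = 0.9996). For Cyp2b10 as for Cyp2b13, mutant replicate 1 on HFD was at the control level, and here the other mutants were above and there below the controls.

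The genes of CAR and PXR varied less over the 16 livers than Cyp2b10 and Cyp2b13, with an SD of 24.4% of the mean for Nr1i3 and 14.4% for Nr1i2 against 57.2% and 64.2%. Cyp2b9, at 26.4%, was close to Nr1i3. Nr1i3 had 273, 181, 217.5 and 245 in controls on chow and 135, 93.2, 247.5 and 241 in mutants on chow. On HFD it had 211, 274, 288 and 225 in controls and 317, 220.5, 233.9 and 249.8 in mutants. Mutant replicates 1 and 2 on chow were the lowest, and the other 14 livers had 181 to 317. The log2 difference between genotypes was −0.45 on chow (SE 0.26, 95% interval −0.997 to 0.10, limma, adjusted p = 0.857), and 0.11 without these 2 libraries. On HFD it was 0.03 (SE 0.26, −0.52 to 0.58). Between diets it was 0.13 in controls (SE 0.26) and 0.61 in mutants (SE 0.26, limma, unadjusted p = 0.0317, adjusted p = 0.709), and 0.05 in mutants without the same 2 libraries.

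Nr1i2 was the member with the smallest relative spread, between 31 and 51.2 in all 16 livers. It had 46.7, 40.0, 47.3 and 44.3 in controls and 38.5, 35.5, 48.7 and 45.8 in mutants on chow. On HFD it had 51.2, 47.5, 44.6 and 34.3 in controls and 36.8, 31, 36.9 and 37.9 in mutants. The log2 difference between genotypes was −0.09 on chow (SE 0.13, 95% interval −0.37 to 0.19) and −0.30 on HFD (SE 0.13, −0.58 to −0.02, limma, unadjusted p = 0.0399, adjusted p = 0.573). The HFD control at 34.3 is the control of series D, so within that series the values were 31 to 37.9 with the control among the mutants. Within series A the mutant had 36.8 and the 3 controls 44.6 to 51.2. With the series as a term, the difference on HFD was −0.17 (SE 0.13, limma, unadjusted p = 0.237). Between diets it was −0.02 in controls (SE 0.13) and −0.23 in mutants (SE 0.13). Ordered by the median over 16 livers, the members were Cyp2b9 at 513, Cyp2b13 at 322, Nr1i3 at 237, Cyp2b10 at 47.4 and Nr1i2 at 42.1. The ranges of neighbours in this order overlapped.

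Each group enters more than 1 comparison, so the comparisons share samples. None of the 5 members passed the adjusted threshold in limma. At an unadjusted p under 0.05 there was 1 of 5 in each of 6 comparisons: Cyp2b13 for genotype on chow and over both diets, Nr1i2 for genotype on HFD, Cyp2b10 for diet in controls and over both genotypes, and Nr1i3 for diet in mutants. The shares of all genes at that level were 6.08% for genotype on chow, 8.98% over both diets, 8.6% on HFD, 12.9% for diet in controls, 14.1% over both genotypes and 6.86% in mutants. For the interaction it was 0 of 5. When libraries were weighted by their fit, so that mutant replicate 1 and control replicate 4 on HFD and mutant replicate 2 on chow counted least (weights 0.329, 0.228 and 0.354), some members passed. Cyp2b13, Cyp2b10 and Nr1i2 did so for genotype on HFD, at −2.03, 0.96 and −0.38 (limma, adjusted p = 0.0234, 0.0262 and 0.00913), as did 30.9% of all genes. Cyp2b10 did so for diet in controls, at −1.34 with 17.8% of all genes, and over both genotypes, at −0.86 with 5.35%. Cyp2b13 did so for genotype over both diets, at −2.04 with 8.03%. The HFD libraries that counted least are the only mutant of series A and the only control of series D. In the weighted fit, genotype on HFD and title series can therefore hardly be told apart.

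**Figure D4:**
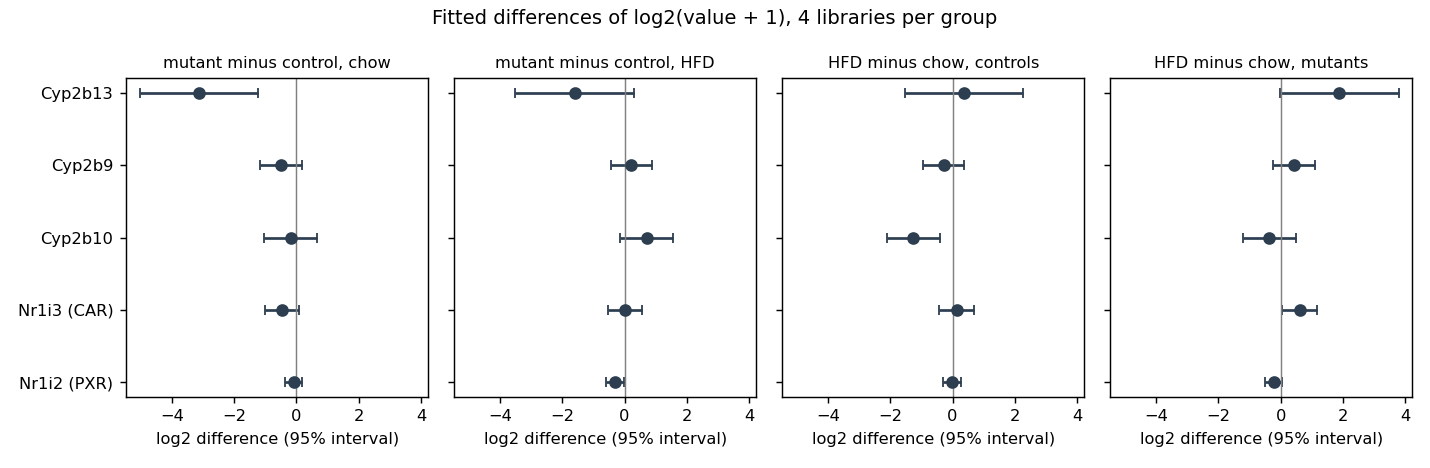
Fitted log2 difference of each member (x axis, difference of log2(value + 1)) with its 95% interval in the 4 comparisons of 2 groups. The intervals of Cyp2b13 on chow (−5.03 to −1.22) and of Cyp2b10 for diet in controls (−2.10 to −0.41) lie clear of 0, as do narrowly those of Nr1i2 for genotype on HFD and Nr1i3 for diet in mutants, and no difference passed the adjusted threshold.

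Likeness among members was measured over libraries and rested in part on 2 livers. Over 16 libraries, Pearson's coefficient on log2(value + 1) was 0.83 for Cyp2b13 with Nr1i3 (Spearman 0.46) and 0.66 for Cyp2b9 with Cyp2b13 (Spearman 0.11). Without mutant replicates 1 and 2 on chow these were 0.14 and −0.38. Within series they varied: Cyp2b13 with Nr1i3 had 0.94 in series A and −0.23 in series D, which hold neither of these livers, and 0.96 in series C, and Cyp2b9 with Cyp2b13 had 0.94, 0.03 and 0.93. With group means subtracted, the coefficients were 0.87 and 0.76. Cyp2b9 and Cyp2b10 had 0.43 (Spearman 0.60), and 0.71 without them (Spearman 0.84). The points share libraries and scaling, and within series A, C and D, of 4 or 5 libraries, the coefficient of Cyp2b9 with Cyp2b10 was −0.61, 0.95 and 0.22. Beside the acute-phase level, Cyp2b13, Cyp2b9 and Nr1i3 were lowest in the 2 chow mutants at 9.63 and 12.2. Cyp2b10 at 86.8 in the first of them was the second highest of the 16, and at 27.0 in the second it was the lowest of the chow livers. Control replicate 1 on HFD, at 10.1, had Cyp2b13 at 419, Cyp2b9 at 315.6 and Nr1i3 at 211, each the lowest of its group. The part of the acute-phase state and of the Kupffer cell markers in these values was not tested.

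**Figure D5:**
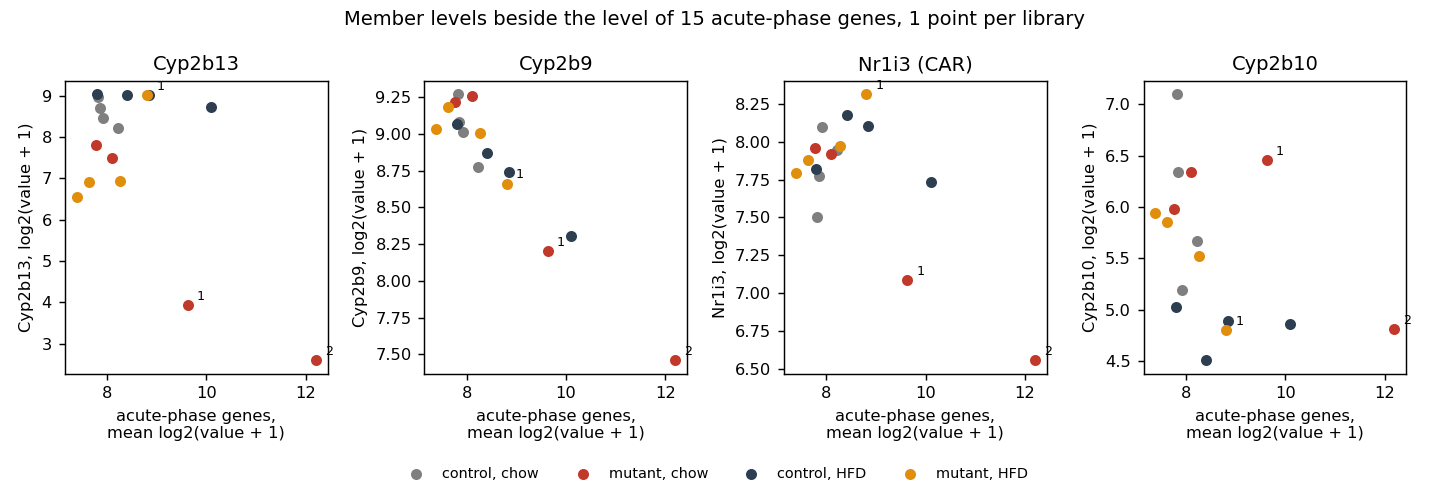
Level of Cyp2b13, Cyp2b9, Nr1i3 and Cyp2b10 (y axes, log2(value + 1)) against the mean log2(value + 1) of 15 acute-phase genes (x axis), 1 point per library. Mutant replicates 1 and 2 on chow lie to the right at 9.63 and 12.2, with the lowest Cyp2b13, Cyp2b9 and Nr1i3, and control replicate 1 on HFD lies at 10.1 with Cyp2b13 at 419.

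Of the 24 partners and regulators of CAR and PXR (retinoid X receptors, co-activators, co-repressors, chaperones and liver factors), none passed the adjusted threshold in limma in any comparison. At an unadjusted p under 0.05 there were 0 for genotype on chow, 4 on HFD (2 higher and 2 lower in mutants), 5 for diet in controls (1 higher and 4 lower on HFD) and 1 for diet in mutants. The shares of all genes were 6.08%, 8.6%, 12.9% and 6.86% in the same order. Rxra, the main hepatic partner of both receptors, was at 121 to 153 in all 16 livers. Nr0b2, which encodes the co-repressor SHP, was at −1.65 between genotypes on HFD (SE 0.58, adjusted p = 0.541), with 86.2, 98.2, 108 and 32.4 in controls and 78.1, 12.1, 20.9 and 13.2 in mutants. The control at 32.4 is that of series D. Without mutant replicate 1, Nr0b2 passed (−2.23, adjusted p = 0.0497), as did 1.11% of all genes. The HFD mutants left in that fit are all of series D. Ncoa2, a co-activator, was at −0.56 between diets in controls (SE 0.18, adjusted p = 0.245).

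The target genes of CAR and PXR were read in 3 fixed lists. None of the 16 phase I genes, 20 conjugation genes or 12 transport and other genes passed the adjusted threshold in limma in any comparison. For diet in controls, where Cyp2b10 was low, the unadjusted p was under 0.05 for 4 of 16 phase I genes, all lower on HFD, for 5 of 20 conjugation genes, all lower, and for 5 of 12 others, 4 of them lower. Of all genes, 12.9% were at that level. The medians of the log2 differences were −0.20, −0.31 and −0.20, beside −0.01 over all genes. Cyp2c55, an inducible P450, was at −1.04 (SE 0.23, adjusted p = 0.158), with 1.32, 2.91, 1.36 and 1.38 on chow and 0.397, 0.267, 0.073 and 0.502 on HFD. Ces2a, a carboxylesterase, was at −0.90 (SE 0.25, adjusted p = 0.204), with 297 to 336 on chow and 156 to 178 on HFD. Gstm3, a glutathione transferase, was at −1.32 (SE 0.32, adjusted p = 0.172), with 47.8 to 146 and 18.6 to 44.3. For these 3 genes, as for Cyp2b10, the groups of controls did not overlap, which held for 6.36% of all tested genes. Gstm2 (−0.94, SE 0.28), the desaturase Scd1 (−2.08, SE 0.52) and the stress gene Gadd45b (−1.10, SE 0.32) were the others with the smallest p-values. In mutants, 5 of 16, 0 of 20 and 2 of 12 had an unadjusted p under 0.05, beside 6.86% of all genes, with list medians of −0.12, 0.02 and 0.09. Without mutant replicates 1 and 2 on chow, the counts in mutants were 5, 0 and 1, all lower on HFD, beside 5.45% of all genes. The medians were then −0.42, −0.18 and −0.16, so the sign of the last 2 depended on these livers. Without them, Ces2a passed for diet in mutants (−1.16, adjusted p = 0.0235), as did 0.0157% of all genes. Ces2a and Cyp2c55 then passed over both genotypes (−1.03 and −0.96, adjusted p = 0.00117 and 0.0407), as did 0.142%. With all mutants kept, Ces2a had 134 to 378 on chow and 130.5 to 198 on HFD. The fit without these livers was added after the data were seen, so passing in it is a description and no independent support.

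For genotype on chow, 5 of 16 phase I genes had an unadjusted p under 0.05 (1 higher and 4 lower in mutants), with 2 of 20 conjugation genes (both lower) and 1 of 12 others (higher), beside 6.08% of all genes. The medians were −0.33, −0.15 and −0.17. Cyp3a11, the main PXR target among mouse P450s, was at −2.47 (SE 0.76, adjusted p = 0.670), with 323.8, 1434, 763 and 581 in controls and 37.5, 189, 96.5 and 310.5 in mutants. All mutants were below all controls, and 3.05% of tested genes had groups without overlap there. Cyp2c50 was at −1.06 (SE 0.38) and Ugt1a9, a glucuronosyltransferase, at −1.03 (SE 0.28, adjusted p = 0.548), and both were lowest in mutant replicates 1 and 2. Without these, 1 of 16, 0 of 20 and 0 of 12 had an unadjusted p under 0.05, beside 2.89% of all genes, and the medians were 0.11, 0.05 and 0.11. For genotype on HFD the counts were 4 of 16 (2 higher and 2 lower), 2 of 20 (both higher) and 2 of 12 (both higher), beside 8.6% of all genes, with list medians of −0.05, 0.22 and 0.24. Aldh1a7 was at 1.08 (SE 0.36), Cyp1a2 at 0.85 (SE 0.29), the sulfotransferase Sult2a1 at 2.17 (SE 0.58) and the transporter Abcc4 at 0.73 (SE 0.24). Without mutant replicate 1, Aldh1a7 (1.54, adjusted p = 0.0064), Abcc4 (0.97, adjusted p = 0.0382) and Tsku (1.72, adjusted p = 0.00206) passed on HFD, which were 1 of 16, 0 of 20 and 2 of 12 beside 1.11% of all genes. The HFD mutants left there are all of series D. Over both diets, Cyp3a11 was at −2.28 (SE 0.54, adjusted p = 0.187). It passed without mutant replicate 1 on HFD (−2.58, adjusted p = 0.0238), with Aldh1a1 (−1.002) and Aldh1a7 (1.13), where 0.937% of all genes passed.

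Cyp2b13 is female-biased, and most other female-biased genes had differences of the opposite sign. Of 28 female-biased genes outside the Cyp2b family, 27 were tested and none passed the adjusted threshold in limma in any comparison. At an unadjusted p under 0.05 there were 3 for genotype on chow and 13 on HFD, all higher in mutants, with medians of 0.56 and 0.87 and positive differences for 21 and 22 of 27. Of all genes, 6.08% were at that level on chow and 8.6% on HFD. Cyp17a1, a steroidogenic P450, had 4.01, 7.22, 2.42 and 1.63 in controls and 33.0, 25.2, 20.2 and 28.5 in mutants on chow. On HFD it had 3.0, 4.74, 2.47 and 0.881 in controls and 1.77, 39.5, 74.8 and 60.7 in mutants, the low mutant being replicate 1. The 7 mutants with high Cyp17a1 were those with low Cyp2b13. Without mutant replicate 1 on HFD, 12 of the 27 passed on HFD, all higher in mutants, beside 1.11% of all genes, with Cyp2a4 among them (2.46, adjusted p = 0.0170). That liver stood out by Cyp17a1 and Cyp2a4 themselves, so this count was not independent of leaving it out. The HFD mutants left are all of series D. For diet in controls 11 of 27 had an unadjusted p under 0.05, 1 higher and 10 lower on HFD, and in mutants 3, all lower. Of all genes, 12.9% in controls and 6.86% in mutants were at that level.

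Of 21 male-biased genes, 14 were tested and none passed in any comparison, with 3 at an unadjusted p under 0.05 for genotype on chow (1 higher and 2 lower) and 2 on HFD (both lower). Cyp2d9, a male-biased P450, was at −2.36 on chow (SE 0.70) and −2.56 on HFD (SE 0.70, adjusted p = 0.524). It had 26.8 to 52.1 in controls and 2.70, 1.79, 17.4 and 17.3 in mutants on chow, and 39.0 to 84.3 in controls and 45.6, 4.21, 3.6 and 7.22 in mutants on HFD. Among 13 genes of growth hormone signalling none passed, with 2 at an unadjusted p under 0.05 for genotype on each diet. Foxa1, a liver pioneer factor, was at −0.56 on chow (SE 0.15, adjusted p = 0.548), with 10.4 to 12.4 in controls and 5.22 to 8.76 in mutants. The growth hormone receptor gene Ghr was at 0.54 on HFD (SE 0.18, adjusted p = 0.527). Without mutant replicate 1 on HFD, Ghr (0.76, adjusted p = 0.0170) and Cyp2d9 (−3.31, adjusted p = 0.0124) passed for genotype on HFD, the only 1 of 13 and 1 of 14 to do so, beside 1.11% of all genes. Cyp2d9 was within the control range in that liver, and the HFD mutants left are all of series D. Among 15 acute-phase genes none passed, with 6 at an unadjusted p under 0.05 for genotype on chow, all higher, and 0 without mutant replicates 1 and 2. These livers stood out by the acute-phase genes themselves, so the latter count was not independent of leaving them out. Of 13 pericentral and periportal genes none passed, with 0 for genotype on chow and 3 on HFD at that level, and medians of 0 and −0.12. Beside these 4 lists, the shares of all genes at an unadjusted p under 0.05 were 6.08% for genotype on chow and 8.6% on HFD.

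The genes nearest to each member in pattern, by Pearson's coefficient on log2(value + 1) over 16 libraries, differed from member to member. After Gm29920, Cyp2b13 was nearest to Ugt1a9 (0.931) and to the interleukin-1 receptor subunit Il1rap (0.916). Il1rap had 106 to 128 in the 8 controls and 118 in mutant replicate 1 on HFD, and 44.8 to 95.1 in the other 7 mutants, the same division as the Cyp2b13 share. Cyp2b9 was nearest to Pbld1 (0.910), the fatty acid hydroxylase Cyp4a10 (0.910) and Gm47147 (0.906). Nr1i3 was nearest to the mitochondrial deacetylase Sirt3 (0.936), Mcm10 (0.927) and the peroxisomal thiolase Acaa1b (0.920). Without mutant replicates 1 and 2 on chow, Cyp2b13 had 0.75 with Ugt1a9 and 0.889 with Il1rap. For Cyp2b9 and Nr1i3 the coefficients fell to between 0.643 and 0.885 without these livers. Cyp2b10 was nearest to C2cd2 (0.885), Cdx4 (0.877) and Atp6v0a1 (0.861), and these were 0.859 to 0.926 without them. Nr1i2 was nearest to Pdhx (0.836), Apbb3 (0.830) and Prss53 (0.813). With group means subtracted, the first were Adck2 for Cyp2b13 (0.934), Sucla2 for Cyp2b9 (0.943), Cdx4 for Cyp2b10 (0.860), Sirt3 for Nr1i3 (0.960) and Pdhx for Nr1i2 (0.876). These coefficients are the highest of 12704 and are given as a description.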

How the data were processed

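Total RNA was purified from liver with an Isolate II kit, and libraries were made with NEBNext Ultra II reagents and run on a NovaSeq sequencer. Kallisto, in gene mode against the mm10 transcriptome, was used by the authors for quantification, and sleuth for their own tests. Versions and annotation release are not given in the sources used here. The deposited table holds a signal for each gene, identified from its numbers as TPM adjusted by size factors (column totals 905897 to 1119703). Depth is therefore unknown, the number of mice limits the precision, and reads of similar genes are divided by estimation.

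Tests covered genes that reached 1 in 4 libraries or more, on log2(value + 1) with limma 3.58.1 (R 4.3.3), with all 16 libraries in a single fit of 4 group means, variance moderated along the mean (trend), and Benjamini-Hochberg adjustment over 12704 genes at 0.05. The procedure was tested on simulated data. Log2 differences understate changes of low genes. Single members were tested by exact two-sided permutation (scipy). The limma p-values set a group difference against the spread between these mice, and the exact ones are shares of label arrangements. Replicates are numbered in sample order and pair nothing. Positions and transcripts came from GENCODE M21 (GRCm38), all members matched by identifier, and promoters from RefSeq. Protein sequences were not used here. Alternatives were pseudocount, filters, 2 other scalings, library weights, a title series term, fits of only the groups compared, and leaving out libraries. Genes were named by rule: the 5 members and Cyp2b19, up to 4 genes a list and comparison past the threshold or else the 2 of smallest p, and the 3 most like each member on each scale. Rxra, Tomm40l, Rps7, Esr1, Gm45225, other pseudogenes and genes that pass without some libraries were chosen after their values were seen. Members and lists were chosen with earlier results of these data known.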

Additional observations from a re-analysis of the deposited data

Results flagged for a closer look

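In a group of 4 livers, a value was picked out where its gap to the next, as a share of the group's range, exceeded Dixon's 95% critical value, and chance alone does this in about 1 of 20 groups; 36 groups were examined. On HFD, Cyp2b13 was 514 in mutant replicate 1 where the other mutants had 92.1 to 120.4, and its percent of the Cyp2b sum there was 54.5 where they had 13.6 to 17.8. Gm29920, its neighbour, was 17.2 in the same liver where they had 6.32 to 6.99. Rps7 in that liver was at the mutant level. Among controls on HFD, Cyp2b13 was 419 in replicate 1 where the others had 514.5 to 522, and Gm29920 was 41.1 in replicate 4 where the others had 11.1 to 15.2. Nr1i2 was 31 in mutant replicate 2 on HFD where the others had 36.8 to 37.9. No interaction of genotype and diet passed the adjusted threshold for a member.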

How the results depend on the processing

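No paired analysis was possible because the labels give no shared replicate numbers. The alternatives were pseudocount 0.1, no filter, a value of 5 in 4 libraries, median-of-ratios factors, column totals, library weights, the title series as a term, only the groups compared, and leaving out each library. Leaving out mutant replicates 1 and 2 on chow together was added after seeing the data. The number of members past the threshold was 0 under all of these but the library weights, which gave 3 for genotype on HFD and 1 each for diet in controls, genotype over both diets and diet over both genotypes. Of 198 log2 differences of members under alternatives other than leaving out 1 library, 181 kept direction and side of the threshold, 6 passed only with the weights and 11 changed sign. Without mutant replicates 1 and 2 on chow, the genotype differences on chow became 0.20 for Cyp2b9, 0.086 for Cyp2b10, 0.11 for Nr1i3 and 0.084 for Nr1i2, the diet differences in mutants −0.26 for Cyp2b9 and −0.31 for Cyp2b13, and the interaction of Cyp2b13 −0.67. Nr1i3 on HFD became −0.0022 with median-of-ratios factors and −0.14 with weights, Nr1i3 for diet in controls −0.047 with column totals, and Nr1i2 for diet in controls 0.055 with weights. Leaving out 1 library moved 3 values near 0 across it: Cyp2b10 for genotype on chow (−0.47 to 0.18), Nr1i3 for genotype on HFD (−0.078 to 0.10) and Nr1i2 for diet in controls (−0.090 to 0.097). Pearson's coefficients became 0.14 for Cyp2b13 with Nr1i3, −0.38 for Cyp2b9 with Cyp2b13 and 0.71 for Cyp2b9 with Cyp2b10 without the 2 livers farthest from the median, and 0.76 and 0.57 for the last 2 pairs with group means subtracted. Adding Cyp2b19 moved the mean Cyp2b sums by less than their SD. The cause of these changes was not tested.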
